A study of Rattus norvegicus with 6 samples.

Results

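The fatty acid desaturases and elongases of rat liver were examined as 1 group of 7 genes, taken by their symbols in the deposited expression table: the desaturases Fads1, Fads2 and Scd1, and the elongases Elovl1, Elovl2, Elovl5 and Elovl6. They are 7 of the 32158 loci with a symbol among 33022 loci in all. The liver stearoyl-CoA desaturase is written Scd1 in the table, and the spelling Scd matched no locus. Elovl6 occurred on 2 loci, of which 1 was at 0 in all libraries, and the other was taken. The group was selected on values of these same libraries, so its members' diet ratios are given as a description.

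Desaturases place double bonds into fatty acyl-CoA, and elongases extend the chain by condensing it with malonyl-CoA, both at the membrane of the endoplasmic reticulum. Fads2 and Fads1 act in turn, with Elovl5 and Elovl2 between and after them, to turn the essential linoleic and alpha-linolenic acids of the diet into arachidonic, eicosapentaenoic and docosahexaenoic acid. Scd1 and Elovl6 serve the other branch, in which the products of de novo lipogenesis become stearic, palmitoleic and oleic acid. Transcription of several of these genes in liver is known to be driven by the sterol regulatory element binding protein Srebf1 with the liver X receptor, and to be repressed by dietary polyunsaturated fatty acids.

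Obesity-prone Sprague Dawley rats, weighing 160 to 190 g at the start, ate either a control diet (CD) or a Western diet (WD) for 2 weeks. The WD was rich in milk fat, sucrose and cholesterol, and the CD contained soybean oil, which supplies linoleic and alpha-linolenic acid. The animals of both groups were male, no allele or agent beyond the diets is named for either, and they were fasted overnight and refed their own diet in the morning before the liver was sampled. The age of the rats was not given in the sources used here. From each diet, RNA was prepared from whole liver homogenate (total RNA) and from 2 parts of a sucrose gradient, a light fraction whose mRNAs carried at most 3 ribosomes and a heavy fraction whose mRNAs carried at least 4. RNA of 3 rats was pooled for each of the 6 libraries, so each combination of diet and RNA is 1 library, the spread between rats is unknown and no p-value was computed. The values are FPKM, that is fragments scaled to the length of the transcript and to the library, here with the authors' normalization between libraries. Levels are thus per length and can be set side by side between genes.

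The positions of the genes in Rnor_6.0 place 2 of the desaturases side by side. Fads2 occupies chr1:226114412-226152524 and Fads1 chr1:226234073-226249138, with 81548 bases between them. Scd1 lies farther along the same chromosome at chr1:264160128-264172729. The elongases are spread over other chromosomes, with Elovl1 at chr5:137255870-137260481, Elovl2 at chr17:21382454-21422407, Elovl5 at chr8:85259981-85285983 and Elovl6 at chr2:234375314-234483149. In RefSeq on GRCr8, Fads1 is on the + strand and Fads2 on the - strand, so the pair starts at the facing ends. Promoter windows from RefSeq (GRCr8), the 250 bases before a start, were found for 6 of the 7 members, with no entry for Elovl6. Shown 5′ to 3′ are those of the 3 desaturases, whose WD to CD ratios were at most 0.75 in total RNA and in both fractions, and that of Elovl5, the most abundant elongase. Capitals mark CCAAT, the core of the site of the factor NFY, and GGGCGG, the core of the site of the factor SP1, each on either strand.
Fads1, chr1:216252442-216252691, + strand: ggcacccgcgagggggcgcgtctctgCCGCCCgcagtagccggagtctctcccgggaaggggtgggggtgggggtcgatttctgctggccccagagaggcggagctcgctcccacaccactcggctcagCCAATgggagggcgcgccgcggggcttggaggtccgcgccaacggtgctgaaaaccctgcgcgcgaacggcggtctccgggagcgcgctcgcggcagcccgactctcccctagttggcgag
Fads2, chr1:216172034-216172283, - strand: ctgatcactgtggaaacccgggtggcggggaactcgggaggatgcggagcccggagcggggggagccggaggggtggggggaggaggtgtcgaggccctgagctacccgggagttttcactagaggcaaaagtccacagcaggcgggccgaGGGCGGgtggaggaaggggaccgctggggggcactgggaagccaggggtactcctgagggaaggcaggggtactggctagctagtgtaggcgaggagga
Scd1, chr1:253231732-253231981, - strand: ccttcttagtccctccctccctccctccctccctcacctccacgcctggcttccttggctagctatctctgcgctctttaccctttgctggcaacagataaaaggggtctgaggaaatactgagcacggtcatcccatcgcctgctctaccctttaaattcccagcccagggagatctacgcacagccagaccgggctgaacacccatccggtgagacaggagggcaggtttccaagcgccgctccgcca
Elovl5, chr8:87670914-87671163, + strand: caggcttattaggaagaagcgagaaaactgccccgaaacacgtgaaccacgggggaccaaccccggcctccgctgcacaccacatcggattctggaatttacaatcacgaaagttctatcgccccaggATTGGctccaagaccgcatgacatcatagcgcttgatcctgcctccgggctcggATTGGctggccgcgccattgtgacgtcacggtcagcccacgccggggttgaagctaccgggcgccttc
The Fads1 window held 1 CCAAT, 121 bases before the start, and 1 GGGCGG. The Fads2 window held 1 GGGCGG and no CCAAT, and the Scd1 window held neither. The Elovl5 window held 2 CCAAT, at 122 and 68 bases before the start. Over the same length, 34% of 33469 promoters held CCAAT and 30.5% held GGGCGG. The sequence TCACCCCAC, a sterol regulatory element, was in none of the members' windows and in 0.409% of all. These matches are letters in a window and were not tied to any measurement.

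The libraries differ in depth. Whole numbers of fragments behind the FPKM values could be inferred for 9246 loci, which held between 247550 fragments in the CD light library and 545627 in the WD light library. The authors' normalization can be read from the FPKM that 1 fragment is worth, which gives the WD light library a depth of 2.34 relative to the CD heavy library and the others a depth between 1 and 1.57. The fragment sums over the loci with numbers, 286783 in the CD heavy library among them, cover part of each library and give other proportions. The WD light library also stood apart in its red blood cell markers, of which 2 of 4 listed were found, Hbb and Alas2. Their summed level was 250 FPKM there against 8.23 to 33.7 FPKM in the other libraries. Results that rest on the WD light library are therefore given beside a measure without it. The hepatocyte markers Alb, Apoa1, Ttr, Tf and Serpina1 had sums of 42433 to 128516 FPKM in the 6 libraries.

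The level of Fads1, the desaturase that forms arachidonic and eicosapentaenoic acid, was 50.0 FPKM in CD total RNA and 13.6 FPKM in WD total RNA. In the light fraction it was 70.8 FPKM (CD) and 11.0 FPKM (WD), and in the heavy fraction 67.1 FPKM (CD) and 12.9 FPKM (WD). All 3 CD libraries were above all 3 WD libraries. The 3 libraries of a diet are different kinds of RNA from pooled rats and not replicates, here and for the members below. How many of all loci were separated in this way was not computed. These levels rest on 184, 178 and 157 inferred fragments in the CD libraries and on 48, 60 and 31 in the WD libraries, in the order total, light and heavy. The ratio of WD to CD was 0.273 in total RNA (95% interval 0.194 to 0.377), 0.155 in the light fraction (0.114 to 0.209) and 0.193 in the heavy fraction (0.127 to 0.285). These intervals are exact Clopper-Pearson intervals for counting error only. They compare libraries, not diets, since no molecular identifiers were used and PCR copies of a molecule count more than once. On the log2 scale the differences were -1.87, -2.68 and -2.37. Among the 4069 loci whose mean reached 10 FPKM, 2.21% had a smaller ratio in total RNA, 0.639% in the light fraction and 1.3% in the heavy fraction.

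Fads2, which carries out the first step from the dietary essential fatty acids, was at 131 FPKM in CD total RNA and at 65.5 FPKM in WD total RNA. Its level was 296 FPKM (CD) and 108 FPKM (WD) in the light fraction, and 463 FPKM (CD) and 313 FPKM (WD) in the heavy fraction. The WD library was lower within each kind of RNA, but the levels overlapped across kinds, since the WD heavy library exceeded the CD light library. The WD to CD ratio was 0.502 in total RNA (95% interval 0.381 to 0.655), 0.364 in the light fraction (0.302 to 0.437) and 0.676 in the heavy fraction (0.577 to 0.791).

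Scd1, which makes oleic and palmitoleic acid from saturated precursors, was the most abundant member in total RNA, at 424 FPKM under the CD and 268 FPKM under the WD. It was at 439 FPKM (CD) and 163 FPKM (WD) in the light fraction, and at 372 FPKM (CD) and 230 FPKM (WD) in the heavy fraction. All CD libraries lay above all WD libraries. With 733 to 2071 fragments per library, Scd1 had the narrowest intervals, and its WD to CD ratio was 0.634 in total RNA (0.59 to 0.68), 0.371 in the light fraction (0.343 to 0.401) and 0.618 in the heavy fraction (0.563 to 0.678).

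Elovl2, which elongates polyunsaturated acids on the way to docosahexaenoic acid, was at 43.9 FPKM (CD) and 26.9 FPKM (WD) in total RNA. Its level was 59.3 FPKM (CD) and 27.1 FPKM (WD) in the light fraction, and 40.4 FPKM (CD) and 33.9 FPKM (WD) in the heavy fraction. The 3 CD libraries again lay above the 3 WD libraries. The ratio was 0.612 in total RNA (0.477 to 0.782) and 0.457 in the light fraction (0.367 to 0.57). In the heavy fraction it was 0.838, with an interval of 0.626 to 1.12 that included 1.

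Elovl5, which elongates the polyunsaturated products of Fads2, was at 215 FPKM (CD) and 177 FPKM (WD) in total RNA, at 145 FPKM (CD) and 62.6 FPKM (WD) in the light fraction, and at 222 FPKM (CD) and 181 FPKM (WD) in the heavy fraction. The WD light library stood below all the others, and the remaining libraries overlapped between the diets. The ratio was 0.824 in total RNA (0.672 to 1.01), 0.433 in the light fraction (0.324 to 0.578) and 0.816 in the heavy fraction (0.636 to 1.04), so the difference exceeded counting error in the light fraction only.

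Elovl1, an elongase of saturated and monounsaturated very long chains that feed sphingolipid synthesis, was at 8.21 FPKM (CD) and 7.43 FPKM (WD) in total RNA and at 9.89 FPKM (CD) and 10.8 FPKM (WD) in the light fraction. In the heavy fraction it was at 8.39 FPKM (CD) and 20.5 FPKM (WD). The WD heavy library was above the other 5 libraries, which lay between 7.43 and 10.8 FPKM. The WD to CD ratio was 0.906 in total RNA, 1.09 in the light fraction and 2.44 in the heavy fraction. No whole fragment numbers were found for Elovl1, whose locus has 2 start sites in the deposited table, so these ratios have no interval. Its mean of 10.86 FPKM reached the limit of 10 FPKM only through the WD heavy library. A rank of its heavy ratio among loci of that level is therefore not given.

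Elovl6, which elongates palmitic to stearic acid, had a mean of 0.63 FPKM and was left out of the comparisons. It was listed at 1.90 FPKM in CD total RNA, 1.11 FPKM in the CD light library and 0.767 FPKM in the WD light library, which correspond to 5, 2 and 3 inferred fragments. It was listed at 0 in WD total RNA and in both heavy libraries. A count of 0 allows up to 3 fragments, which are worth 1.19 FPKM in WD total RNA, 1.79 FPKM in the CD heavy library and 1.75 FPKM in the WD heavy library. A diet difference of Elovl6 was not detectable at this depth.

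**Figure D1:**
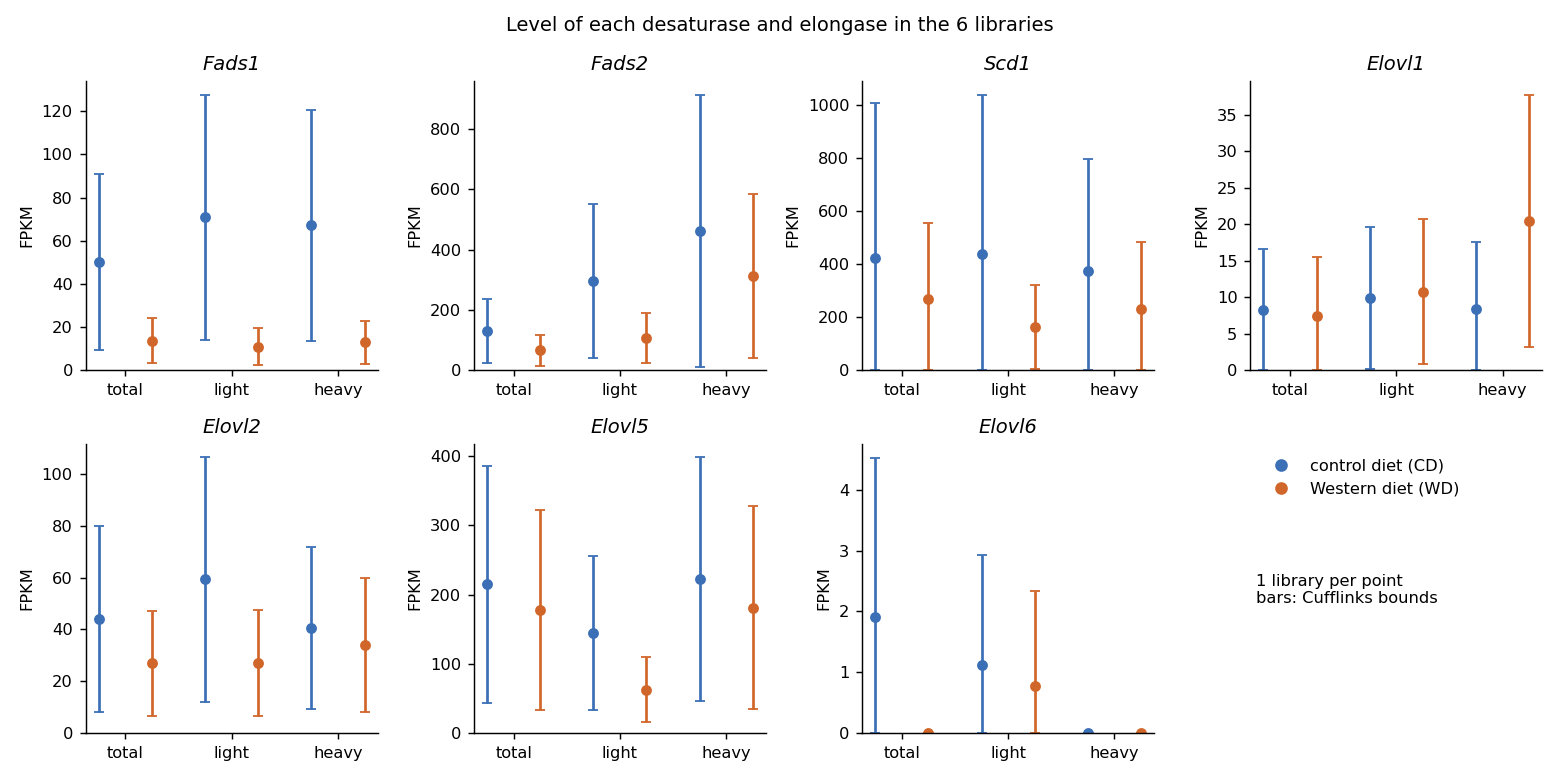
Level of each of the 7 members in FPKM (vertical axis, linear, from 0) in total RNA, the light fraction and the heavy fraction, with CD libraries in blue and WD libraries in orange. Each point is 1 library and each bar spans the bounds that Cufflinks gives for the value. Fads1 drops from 50.0 to 13.6 FPKM in total RNA with the same order in both fractions, while Elovl1 is highest in the WD heavy library at 20.5 FPKM.

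The bounds that Cufflinks deposited with each value are much wider than the counting intervals. They overlapped between the diets for every member in total RNA, in the light fraction and in the heavy fraction. They also leave the order of the members by level uncertain. In CD total RNA the order was Scd1, Elovl5, Fads2, Fads1, Elovl2, Elovl1 and Elovl6, and none of the 6 neighbouring pairs had separate bounds. The same was true of the order in 4 other libraries, and in the WD heavy library 1 of 6 neighbouring pairs had separate bounds. Elovl2 stood above Fads1 in all WD libraries and below it in all CD libraries.

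After 0.1 FPKM was added to each value, a ratio of at least 1.5 was called higher and a ratio of at most 0.75 lower, over the 10201 loci that had a symbol and averaged 1 FPKM or more across the libraries. In total RNA, 4 of the 6 members compared were lower and 0 higher, where 22.7% of all loci compared were lower and 17.7% higher. The lower ones were Fads1, Fads2, Scd1 and Elovl2. In the light fraction, 5 members were lower and 0 higher, beside 26.8% and 25.9% of all loci, and Elovl1 was the member that did not pass. In the heavy fraction, 3 members were lower (Fads1, Fads2 and Scd1) and 1 was higher (Elovl1), beside 25.8% and 21.7% of all loci. The median log2 difference of the 6 members was -0.68 in total RNA, -1.32 in the light fraction and -0.43 in the heavy fraction, while the median of all loci compared was 0.022, 0.017 and -0.015. The 3 desaturases were lower in all 3 kinds of RNA, as were 2.52% of all loci compared. For Fads2 in the heavy fraction this rests on the threshold, since with a limit of 1 over 1.5 its ratio of 0.676 was no longer called and 2 members were lower there, and with the libraries rescaled to the same sum over all loci 1 member was. Because the members were selected on values of these libraries, these counts do not test the group. Since the RNA came from whole liver, fewer cells of a type and less RNA per cell cannot be told apart.

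Marker levels of several cell types of the liver differed between the diets as well. The summed level of the 5 hepatocyte markers was 82447 FPKM in CD total RNA and 74199 FPKM in WD total RNA, and none of the 5 was higher under the WD. The 6 Kupffer cell and macrophage markers were all higher, with a sum of 55.3 FPKM (CD) and 84.1 FPKM (WD). Of the other lists, 4 of 4 endothelial markers found and 3 of 4 stellate cell markers found were higher. Of the red blood cell markers, 0 of 2 found were higher, with a sum of 21.8 FPKM (CD) and 8.23 FPKM (WD). White blood cell markers had 1 of 4 higher and cholangiocyte markers 1 of 3 found, and both lists held genes at 0 in all libraries. The share of all loci that were higher at all was not computed for these counts. Of 4 adipocyte markers, Adipoq and Plin1 were at 0 in all libraries and the other 2, Fabp4 and Cfd, were higher under the WD, with a summed level of 14.3 FPKM (CD) and 31.1 FPKM (WD) in total RNA. The part of these shifts in the desaturase and elongase ratios was not tested.

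**Figure D2:**
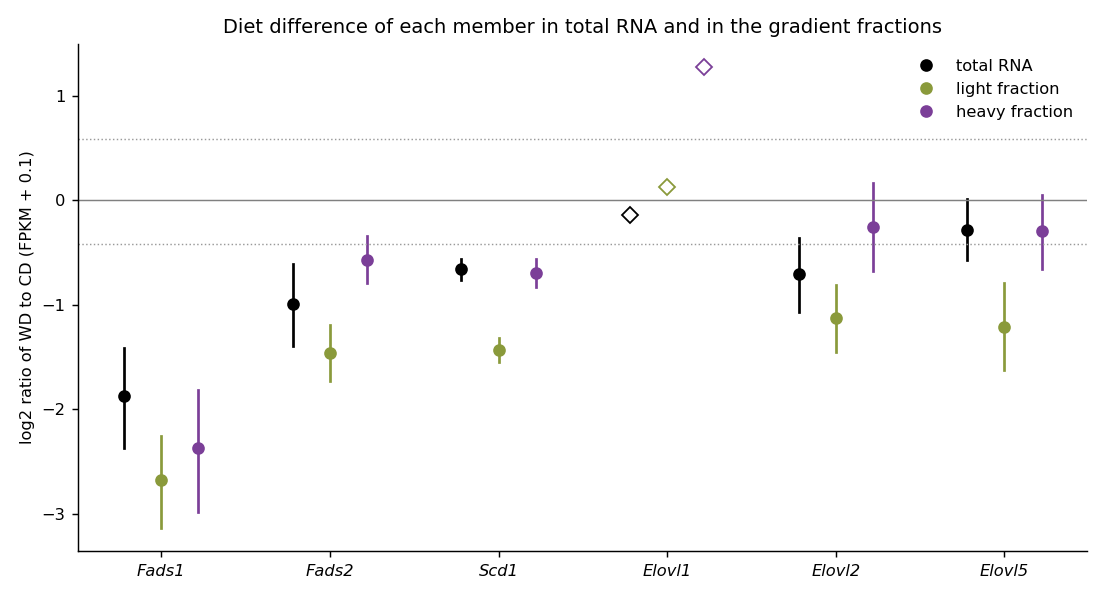
log2 ratio of WD to CD of the 6 members compared (vertical axis, FPKM with 0.1 added) in total RNA (black), the light fraction (green) and the heavy fraction (purple). Lines are 95% counting intervals, open diamonds mark Elovl1, which has none, and dotted lines mark ratios of 1.5 and 0.75. Fads1 lies lowest in each kind of RNA, at -1.87, -2.68 and -2.37, and Elovl1 in the heavy fraction is the single point above the upper line, at 1.28.

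The size of the diet difference was not alike among the members. Any scaling between libraries cancels when a pair of members is compared inside the same libraries, so the ratio of their WD to CD fragment ratios was formed for all 10 pairs of the 5 members with fragment numbers in each kind of RNA. This comparison was chosen after the values were seen. In total RNA, the ratio of Fads1 was 0.544 times that of Fads2 (conditional 95% interval 0.352 to 0.836), 0.43 times that of Scd1 (0.304 to 0.6), 0.445 times that of Elovl2 (0.292 to 0.674) and 0.331 times that of Elovl5 (0.223 to 0.488). Fads1 thus had the lowest WD to CD ratio of the 5 members with fragment numbers, and each of the 4 intervals lay below 1. These intervals share the Fads1 fragments and followed a look at the values, so they do not test its rank. In the light fraction the corresponding values were 0.426, 0.418, 0.339 and 0.358, and in the heavy fraction 0.285, 0.312, 0.23 and 0.236, each with an interval below 1. Fads1 and Fads2 are neighbours on chromosome 1, and their ratios differed in all 3 kinds of RNA.

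Among the other 4 members, few pairs differed beyond counting error. Elovl5 was reduced less than Fads2 in total RNA, where the ratio of Fads2 was 0.609 times its own (0.432 to 0.856). It was also reduced less than Scd1 in total RNA (0.769, 0.62 to 0.955) and in the heavy fraction (0.758, 0.581 to 0.989). Fads2 and Scd1, the desaturases that open the polyunsaturated and the monounsaturated branch, had a ratio of 0.792 in total RNA (0.596 to 1.04), 0.981 in the light fraction (0.802 to 1.2) and 1.09 in the heavy fraction (0.909 to 1.32). All 3 of these intervals include 1 and leave room for differences of the size of their bounds. In all, intervals lay away from 1 for 6 of 10 pairs in total RNA, 4 of 10 in the light fraction and 5 of 10 in the heavy fraction, with no adjustment over the pairs.

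**Figure D3:**
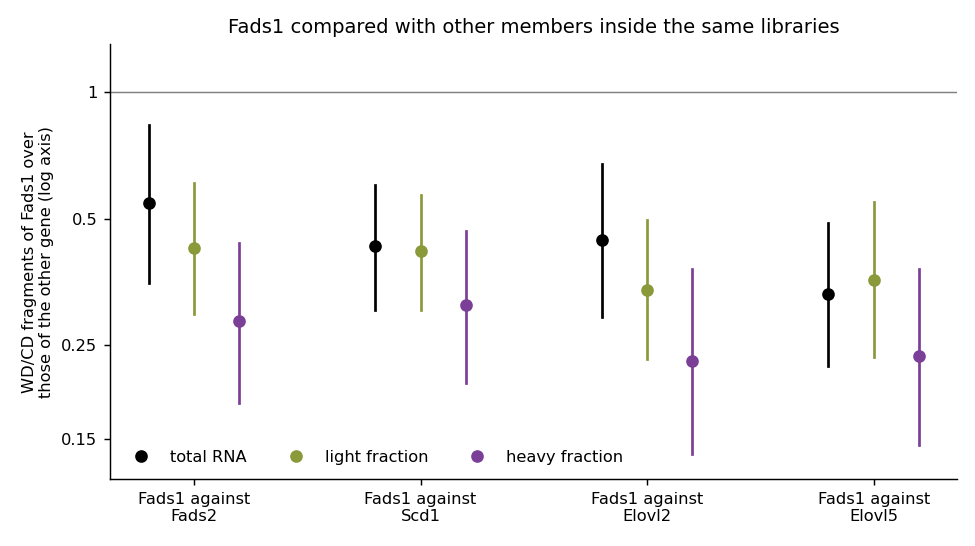
WD to CD fragment ratio of Fads1 divided by that of Fads2, Scd1, Elovl2 or Elovl5 in the same libraries (vertical log axis, the line marks 1), in total RNA (black), the light fraction (green) and the heavy fraction (purple), with conditional 95% intervals for counting error. All 12 points and their intervals lie below 1, from 0.23 against Elovl2 in the heavy fraction to 0.544 against Fads2 in total RNA.

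The make-up of the group shifted accordingly. The summed level of the 7 members was 873 FPKM in CD and 559 FPKM in WD total RNA, 1021 and 383 FPKM in the light fraction, and 1173 and 791 FPKM in the heavy fraction. The share of Fads1 in this sum was 5.73% (CD) and 2.44% (WD) in total RNA, 6.94% and 2.87% in the light fraction, and 5.72% and 1.63% in the heavy fraction. Scd1 kept a similar share in total RNA, at 48.5% under the CD and 48% under the WD. Elovl5 took a larger share under the WD in total RNA, at 31.7% against 24.6%.

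**Figure D4:**
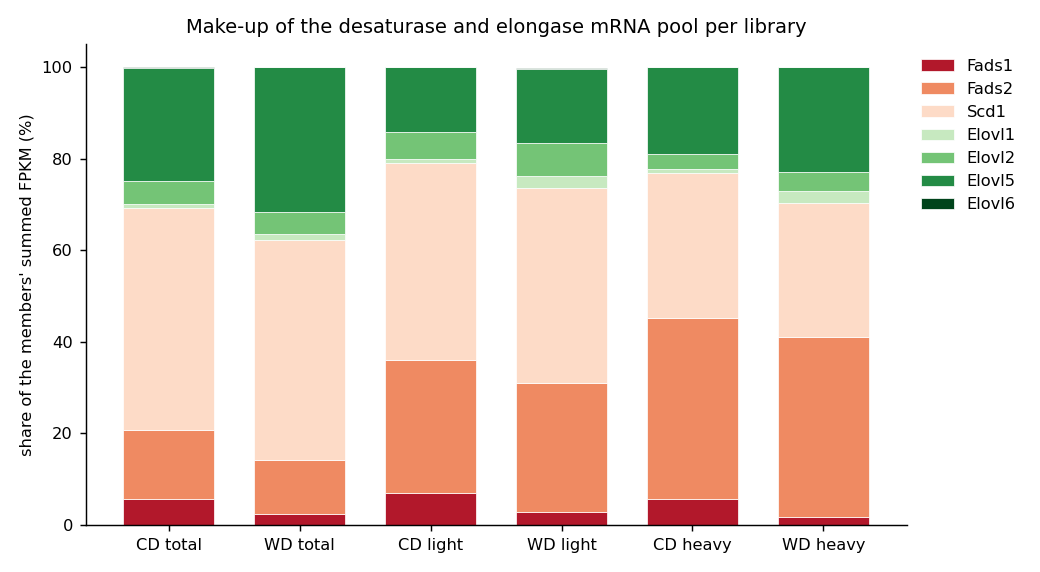
Share of each of the 7 members in their summed FPKM (vertical axis, percent, from 0) in the 6 libraries, 1 bar per library. The Fads1 segment shrinks from 5.73% to 2.44% in total RNA, and the Fads2 segment grows from 15% in CD total RNA to 39.5% in the CD heavy library.

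The study measured ribosome density as the heavy over the light fraction, and compared this ratio between WD and CD. The libraries are normalized to one another, so this ratio gives relative levels and not where most of an mRNA lies. Under the CD it was 1.56 for Fads2 (95% interval 1.33 to 1.83) and 1.54 for Elovl5 (1.19 to 2). It was 0.848 for Scd1 (0.784 to 0.916), 0.682 for Elovl2 (0.529 to 0.875), 0.947 for Fads1 (0.759 to 1.18) and 0.849 for Elovl1. With the same sum over all loci, the 4 ratios below 1 under the CD all rose above 1. In log2, Fads1 turned from -0.078 to 0.78, Scd1 from -0.24 to 0.62, Elovl1 from -0.23 to 0.61 and Elovl2 from -0.55 to 0.30. Under the WD, the ratio was 2.90 for Fads2 (2.42 to 3.49), 2.90 for Elovl5 (2.2 to 3.83), 1.41 for Scd1 (1.29 to 1.55) and 1.90 for Elovl1. It was 1.18 for Fads1 (0.738 to 1.85) and 1.25 for Elovl2 (0.957 to 1.62), whose intervals include 1.

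The change of ribosome density from CD to WD was 1.86 for Fads2 (conditional interval 1.45 to 2.37), 1.67 for Scd1 (1.47 to 1.88), 1.83 for Elovl2 (1.27 to 2.65) and 1.89 for Elovl5 (1.28 to 2.77), and it was 2.24 for Elovl1. For Fads1 it was 1.24, with an interval of 0.739 to 2.07. Of the 6 members, 5 were thus higher and 0 lower, where 27.7% of all loci compared were higher and 36.1% lower, and the median log2 change of the members was 0.88 against -0.021 for all loci compared. The group was selected on values of these libraries, and the values of all 6 members share the same light and heavy libraries. They are therefore not independent evidence of a direction.

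The density values rest on the WD light library, in which Fads1, Fads2, Scd1, Elovl2 and Elovl5 were reduced more than in the other kinds of RNA. In unscaled fragments the density change of the 5 members with fragment numbers was below 1, from 0.586 for Fads1 to 0.888 for Elovl5, because equal fragment numbers read as 2.12 after scaling for depth. Total RNA gives a reference without the light libraries. With heavy fraction over total RNA, the log2 change from CD to WD was -0.50 for Fads1, 0.43 for Fads2, -0.036 for Scd1, 0.45 for Elovl2 and -0.015 for Elovl5, and it was 1.42 for Elovl1. By that measure 1 member passed the upper threshold, Elovl1, beside 26.7% of all loci compared, and 1 the lower, Fads1, beside 31% of them. The density changes of Fads2, Elovl1 and Elovl2 had the same sign by both measures, and those of Scd1, Elovl5 and Fads1 did not. Scd1 and Elovl5 showed almost no change against total RNA. No counting interval was formed for that measure, so these signs may lie within counting error. Both measures also share the heavy libraries, so a kept sign is not independent evidence.

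**Figure D5:**
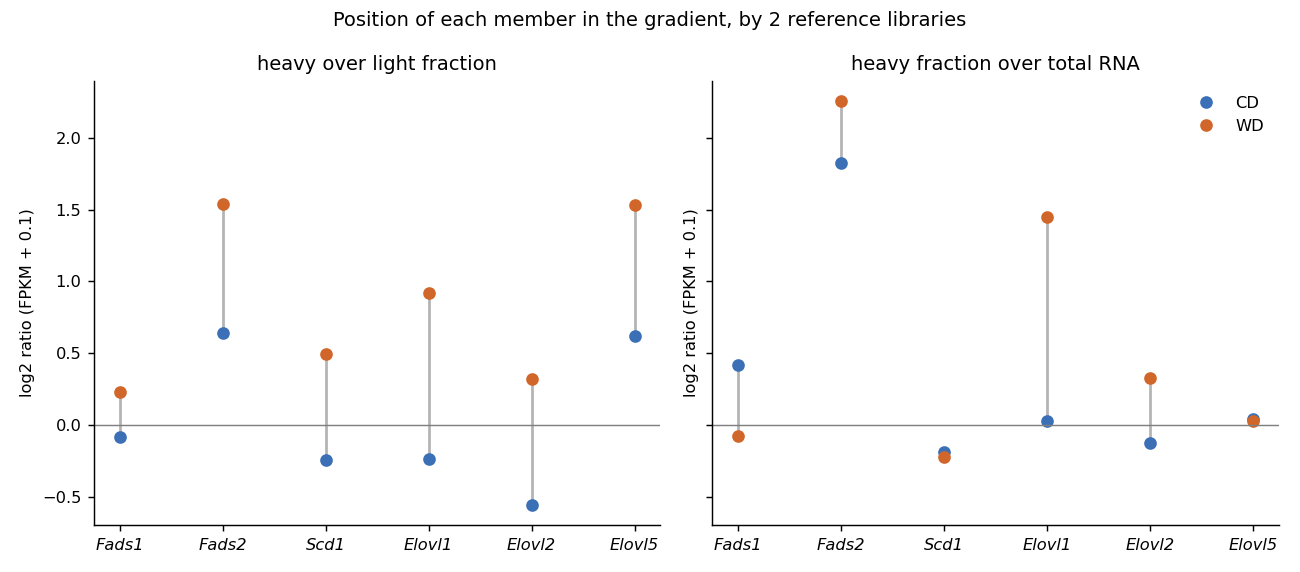
log2 ratio (vertical axis, FPKM with 0.1 added) of the heavy to the light fraction (left) and of the heavy fraction to total RNA (right) for the 6 members compared, under the CD (blue) and the WD (orange), 1 library per value. On the left every WD point lies above its CD point. On the right the points of Scd1 and Elovl5 nearly coincide, Fads1 is lower under the WD, and Elovl1 rises from a ratio of 1.02 to 2.73.

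Fads2 had high levels in both fractions relative to total RNA under both diets. Its level in the heavy fraction was 3.54 times that in total RNA under the CD and 4.77 times under the WD, above 96.2% and 97.9% of the loci averaging 10 FPKM or more. Its light fraction was 2.27 times total RNA under the CD and 1.64 times under the WD, above 92.1% and 80.1% of these loci. Its heavy to light ratio was less extreme, above 66.7% of them under the CD and 87.2% under the WD, and close to that of Elovl5. Elovl5 was the opposite case in the light fraction, with 0.672 times its total RNA level under the CD and 0.353 times under the WD, where 3.91% of loci had a smaller ratio.

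Other desaturases and elongases were sparse in these livers. Of 9 such genes, Elovl3, Elovl4, Elovl7 and the ceramide desaturase paralogue Degs2 were listed at 0 in all libraries, and Fads3 and Scd4 had means below 1 FPKM. The remaining 3, Fads6, Scd2 and Degs1, were compared. None passed a threshold in total RNA or in the heavy fraction, 2 were higher and 0 lower in the light fraction (Fads6 and Scd2), and in ribosome density 1 was higher and 2 were lower. Of all loci compared, 25.9% were higher and 26.8% lower in the light fraction, and 27.7% and 36.1% in density. The median log2 change of the 3 genes was 0.92 in the light fraction, opposite in sign to that of the members, and -0.042 in total RNA. In the light fraction Degs1 was at -0.19, and Scd2 rests on 7 (CD) and 30 (WD) inferred fragments. Fads6, an orphan relative of the desaturases, was at 12.6 FPKM (CD) and 18.9 FPKM (WD) in total RNA, which is at the upper threshold and fell short of it only after 0.1 FPKM was added (log2 0.58). In the light fraction it was at 19.2 FPKM (CD) and 36.5 FPKM (WD). Scd2, the neighbour of Scd1, lay between 1.85 and 3.64 FPKM over the 6 libraries, and reads shared with Scd1 could not be told apart. Degs1, which introduces the double bond of ceramide, was at 19.8 FPKM (CD) and 19.2 FPKM (WD).

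Partner enzymes of the same reactions were read by the same thresholds, and the counts of this and the following lists stand beside the same shares of all loci compared, 22.7% lower and 17.7% higher in total RNA, 26.8% and 25.9% in the light fraction, and 25.8% and 21.7% in the heavy fraction. No list was tested against those shares. In total RNA, among the electron donors of the desaturases, 1 of 4 was lower and 0 higher. Cyb5a, the cytochrome b5 that passes electrons to them, was at 360 FPKM (CD) and 460 FPKM (WD), and its reductase Cyb5r3 at 65.2 FPKM (CD) and 57.1 FPKM (WD). The lower one was Cyb5r1, a second reductase, at 2.68 FPKM (CD) and 0 (WD), from few fragments. Of the elongation cycle, 1 of 5 partners compared was higher and 0 lower, and the main ketoacyl reductase Hsd17b12 was at 59.2 FPKM (CD) and 57.3 FPKM (WD). The one that was higher was Hacd1, a dehydratase, at 0 (CD) and 1.75 FPKM (WD). Of 6 acyl-CoA synthetases, which activate the substrates, none passed a threshold in total RNA. Acsl1, the most abundant of them, was at 1006 FPKM (CD) and 788 FPKM (WD). In the fractions, 3 of 5 elongation partners were lower and 1 higher in the light fraction, 1 was lower and 2 were higher in the heavy fraction, and 2 of 6 synthetases were lower and 0 higher in each.

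Peroxisomal enzymes shorten the long products in the last step towards docosahexaenoic acid. Of 7 such genes, 2 were lower and 1 was higher in total RNA, 2 and 2 in the light fraction, and 3 and 0 in the heavy fraction. Ehhadh, the bifunctional enzyme of peroxisomal beta-oxidation, was at 298 FPKM (CD) and 179 FPKM (WD) in total RNA, and the reductase Decr2 at 112 FPKM (CD) and 79.8 FPKM (WD). The higher one in total RNA was Acot8, at 1.12 FPKM (CD) and 2.73 FPKM (WD), from 3 and 7 inferred fragments. In the light fraction Scp2 was at 32.5 FPKM (CD) and 183 FPKM (WD).

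Of 11 transcription regulators of lipogenic genes and their cofactors, 2 were lower and 1 was higher in total RNA, 3 and 3 in the light fraction, and 2 and 2 in the heavy fraction. Srebf1, the activator of desaturase genes, was at 28.0 FPKM (CD) and 35.1 FPKM (WD) in total RNA, at 26.1 and 43.1 FPKM in the light fraction, and at 42.3 and 85.0 FPKM in the heavy fraction. Its level was thus higher under the WD in each kind of RNA, past the threshold in both fractions, while Fads1, Fads2 and Scd1 were lower. Mlxipl, which mediates the response to glucose, was at 12.8 FPKM (CD) and 19.4 FPKM (WD) in total RNA and was the higher one. The lower ones were Srebf2, the regulator of cholesterol synthesis, at 15.8 FPKM (CD) and 10.7 FPKM (WD), and the liver X receptor Nr1h3, at 32.3 FPKM (CD) and 21.0 FPKM (WD). Nr1h3 went the other way in the light fraction, at 36.6 FPKM (CD) and 66.1 FPKM (WD). These are mRNA levels, and the activity of the factors was not measured.

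The genes with the pattern most like each member were found by the Euclidean distance between their log2 levels in the 6 libraries, each gene centred on its mean, over 3743 loci. Nearest to Fads1 were the homeobox gene Hhex (distance 0.888), the locus Rn60_1_2620.3 (1.26) and the stress gene Gadd45g (1.28). Hhex was at 111.5, 159.1 and 161.2 FPKM in the CD libraries and at 41.61, 47.52 and 47.29 FPKM in the WD libraries, in the order total, light and heavy. Nearest to Fads2 were the hepatokine Fgf21 (0.711), the pyruvate carrier subunit Mpc1 (0.772) and RGD1559600 (0.854). Fgf21 was at 55.47 FPKM (CD) and 27.92 FPKM (WD) in total RNA and at 129.1 and 126 FPKM in the heavy fraction.

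Scd1 had closer neighbours, namely Asna1 (0.373), Slc35d1 (0.388) and Tex264 (0.43). Elovl2 was nearest to S100a16 (0.302), the cholesterol synthesis gene Msmo1 (0.42) and Net1 (0.444). For Elovl5 they were Klhl7 (0.305), the retinol dehydrogenase Rdh5 (0.364) and the ATP synthase subunit gene Atp5g3 (0.367), and for Elovl1 they were Gna11 (0.199), the splicing factor Bcas2 (0.363) and Sgpl1 (0.533), a lyase of sphingolipid breakdown. Among the members themselves, Scd1 and Elovl2 were closest (0.675), followed by Scd1 and Elovl5 (1.07), and Fads1 and Elovl1 were farthest apart (3.52). Fads1 was 2.5 from its neighbour Fads2, farther than from Scd1 (1.77). These distances share the same 6 libraries and describe likeness only.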

How the data were processed

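Total RNA and light and heavy gradient fractions of rat liver were measured in 6 libraries, each pooled from 3 rats, with 1 library per group. According to the submitters' processing notes, the authors used bcl2fastq, TopHat, Cufflinks and Cuffnorm with Rnor_6.0. The annotation is not given in the sources used here. The authors deposited FPKM per locus, normalized between libraries, with a lower and an upper bound. All 6 value columns were mapped to samples.

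From the deposited FPKM, log2 changes were computed after adding 0.1 FPKM, which understates changes of low genes. The comparisons covered loci whose estimate succeeded, which carried a symbol and averaged 1 FPKM or more over the libraries. A ratio of at least 1.5 or at most 0.75 was called. Where a symbol occurred on several loci, the one with the highest mean was taken.

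Fragment numbers were inferred as whole multiples of 1 step per gene and 1 factor per library, with a relative tolerance of 2e-05, for 74.2% of 12459 loci above 0 in at least 2 libraries. A further 649 loci with over 10 times the median number of fragments per FPKM were dropped. Numbers were found for 72.2% of loci above 0 in all 6 libraries and for 2.65% of such loci after a jitter of 1% (before that removal). Tested on simulated data, the search gave numbers to 99.9% of genes. Multiples of the numbers would give the same FPKM.

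The members, the gene lists and the tests were chosen with earlier results of these data known. The genes named are the members, the 3 loci most like each in pattern and genes of the lists. Alternatives covered the filter, pseudocount, scaling, lower threshold, measure of density and measure of likeness. Protein sequences were not analysed here. Tables were handled with numpy 2.4.6 and pandas 2.3.3 in Python 3.11.15, intervals came from scipy 1.17.1 and plots from matplotlib 3.10.9.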

Additional observations from a re-analysis of the deposited data

Results flagged for a closer look

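Elovl1 differed from the other members in the direction of its diet difference. Its log2 ratio of WD to CD was -0.14 in total RNA, 0.12 in the light fraction and 1.28 in the heavy fraction, so the sign was not the same in each kind of RNA. The values in total RNA and the light fraction are close to 0, and the light value was -0.22 with the same sum over loci with a symbol and 0.80 with the same sum over all loci, while the heavy value was 1.25 and 1.66. The difference between them was not tested, as each value compares 1 library with 1 library and Elovl1 has no fragment numbers.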

How the results depend on the processing

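Of 12 settings, 8 gave new values for single members. Of 205 such values for the 5 members with counting intervals, 172 stayed within the interval of the value reported, 30 lay outside it with the same sign or without being past a threshold, and 3 reversed. The 172 include all values from other pseudocounts or from centring on the median, which could hardly move genes of this level. They are therefore no measure of robustness. The 30 include sign changes, such as Scd1 in heavy over light under the CD (log2 -0.24 to 0.62). The scaling between libraries had the widest effect. With each library rescaled to the same sum over loci with a symbol, the members' median in the light fraction was -1.67. With the same sum over all loci, chosen after seeing the data, the light median was -0.63 with 1 member at least 1.5 times higher, in the heavy fraction 1 member was lower with a median of -0.048, and 3 members had a density change of at least 1.5. The heavy to light ratios of Fads1, Scd1, Elovl1 and Elovl2 under the CD then turned from below 1 to above 1. In log2 they were 0.78, 0.62, 0.61 and 0.30. These scalings moved the median of all loci along with the members, by -0.31 and 0.68 (log2) in the light fraction. With a lower limit of 1 over 1.5, Fads2 lost its call in the heavy fraction, where 2 members were then lower. With heavy over total RNA as density, 1 member was at least 1.5 times and 1 at most 0.75 times, the median was 0.21, and Scd1 (-0.036) and Elovl5 (-0.015) reversed. With the inferred fragments scaled to the library's sum, 0 members were higher in the heavy fraction because Elovl1 has no fragment numbers.

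No paired analysis was possible because each diet and kind of RNA has 1 library. For the same reason no library was left out of a group. The depth limits Elovl6, and with 31 to 60 fragments in the WD libraries the Fads1 ratios are uncertain to the intervals given. The nearest genes depended on the measure of likeness. By Pearson correlation Cish came first for Fads1, Dynlrb1 for Fads2, Trib1 for Scd1 and Ttr for Elovl5, while Gna11 and S100a16 stayed first for Elovl1 and Elovl2.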
